A study of Mus musculus with 24 samples.

Results

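The broad H3K4me3 regions that livers of Smyd3-knockout and wild type mice share after diethylnitrosamine are described here. They are the regions of at least 4000 bp in the H3K4me3 list of DEN-treated wild type livers (DEN_WT) that overlap the list of DEN-treated knockout livers (DEN_KO) by at least 1 bp. Of the 15579 regions in the DEN_WT list, 805 met this rule, which is 5.17% of its regions and 15.8% of its base pairs (4.26 Mb). The members were selected on their DEN_WT width and on the presence of a DEN_KO region, so these measures describe them and carry no test. Genes with a start site within 1000 bp of a member were assigned to it, which gave 919 genes at 683 members and left 122 members without a gene start.

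Trimethylation of lysine 4 on histone H3 (H3K4me3) marks the start sites of active and poised genes, where SET1 and MLL complexes lay it down and factors that help to load the transcription machinery bind it. At most promoters the mark forms a short peak, while at some genes it spreads into the transcribed region. Broad domains of this kind are known from many tissues for covering genes that define the cell type or that are transcribed at a high rate. Smyd3 is a protein of the SET and MYND family that methylates lysines of several substrates and has been found at active promoters.

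In the knockout, transcription of Smyd3 is cut short by a trap cassette within intron 5, and the exons upstream of it can still be read. All mice were of the background given as C57BL6/CBA and were 8.5 months old. RNA came from 4 groups of 3 mice: DEN_KO (knockout, 1 intraperitoneal dose of 25 mg/kg diethylnitrosamine, DEN), DEN_WT (wild type, same dose), KO (knockout, untreated) and WT (wild type, untreated). DEN is a carcinogen that hepatocytes activate and that brings on liver tumours in mice. All chromatin came from DEN-treated livers, with H3K4me3 precipitated from 2 DEN_KO and 2 DEN_WT livers and Smyd3 from 2 DEN_WT livers. Each of these has 1 deposited list, so a region's width has no replicate error. Whole livers were used, so in every RNA value fewer cells of a type and less RNA per cell cannot be told apart.

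The 12 RNA libraries summed to 22320634 to 28973396 normalised read counts, and libraries of 1 group correlated with r of 0.956 to 0.978. Smyd3, which itself had a narrower shared H3K4me3 region, had 12, 3 and 8 normalised read counts in DEN_KO livers, against 57, 71 and 74 in DEN_WT livers (log2 fold change -3.13 ± 0.41 SE, limma adjusted p = 0.000182). It read 29, 17 and 22 in KO livers, against 79, 89 and 59 in WT livers (-1.71 ± 0.41, limma adjusted p = 0.0651). The summed hepatocyte markers (6 genes) were 1691589 to 2544438 in DEN_KO livers, 2996390 to 4605476 in DEN_WT livers, 1784495 to 3098573 in KO livers and 2093713 to 2306959 in WT livers, although 2 of the 6 were called higher and 0 lower in DEN_KO than in DEN_WT livers. No marker of any of the 8 cell types listed was at 0 in all libraries. The summed bile duct markers (7 genes) were 1536 to 2328 in DEN_KO livers, 10397 to 17403 in DEN_WT livers, 1159 to 1234 in KO livers and 1271 to 1539 in WT livers, and 2 of the 6 tested were called lower and 0 higher in DEN_KO than in DEN_WT livers. The summed macrophage markers (10 genes) were 8670 to 12761 in DEN_KO livers and 2685 to 9890 in DEN_WT livers, with 2 called higher and 1 lower. Of 8 endothelial markers, 3 with a broad shared region (Kdr, Stab2 and Eng), 2 were lower and 0 higher in DEN_KO than in DEN_WT livers. In DEN_WT against WT livers 4 of them were higher and 0 lower. Of 10 stellate markers 4 were lower and 2 higher in DEN_KO than in DEN_WT livers, and of 7 B cell markers 0 were lower and 2 higher. T and NK cell and neutrophil markers gave 0 calls. Over all tested genes 16.4% were called higher and 17.4% lower in DEN_KO than in DEN_WT livers. In DEN_WT against WT livers 16.1% of all tested genes were higher and 13.5% lower. The part of these cell types in the RNA differences given further on was not tested.

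The widest members with and without a Smyd3 peak within 500 bp of the gene start are shown by the promoters of 4 genes each, taken among protein-coding genes with 1 RefSeq promoter. The 120 bases before the start are given 5′ to 3′ on the gene's strand, from RefSeq on GRCm38.p6, with CG pairs in capitals, since promoters rich in them are the usual sites of H3K4me3. The first 4 had no Smyd3 peak there and the last 4 had one.
Serpina1d: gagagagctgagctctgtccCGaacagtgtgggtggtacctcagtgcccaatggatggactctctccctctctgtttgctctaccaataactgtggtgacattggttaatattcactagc
Serpind1: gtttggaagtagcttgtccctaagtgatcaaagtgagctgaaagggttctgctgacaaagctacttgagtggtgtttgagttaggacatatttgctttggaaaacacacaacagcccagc
Gc: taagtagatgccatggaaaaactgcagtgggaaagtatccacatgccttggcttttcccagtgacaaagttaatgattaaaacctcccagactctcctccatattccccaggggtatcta
Serpina1b: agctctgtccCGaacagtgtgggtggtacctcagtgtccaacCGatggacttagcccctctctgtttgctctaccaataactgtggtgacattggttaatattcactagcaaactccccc
Sdc4: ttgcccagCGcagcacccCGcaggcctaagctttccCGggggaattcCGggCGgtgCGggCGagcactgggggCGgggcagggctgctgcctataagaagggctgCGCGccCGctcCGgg
Cat: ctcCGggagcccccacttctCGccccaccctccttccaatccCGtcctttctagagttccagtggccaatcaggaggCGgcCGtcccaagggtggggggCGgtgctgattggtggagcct
Serpina1c: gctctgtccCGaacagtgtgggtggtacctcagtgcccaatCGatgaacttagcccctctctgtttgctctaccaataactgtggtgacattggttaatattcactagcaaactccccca
Klf15: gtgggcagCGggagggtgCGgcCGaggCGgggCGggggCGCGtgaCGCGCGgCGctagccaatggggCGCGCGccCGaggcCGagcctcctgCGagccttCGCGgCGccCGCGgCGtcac

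In 300 bases, from 250 before to 50 after the start, the promoters without a Smyd3 peak held 4 (Serpina1d), 2 (Serpind1), 0 (Gc) and 5 (Serpina1b) CG pairs. Those with a peak held 22 (Sdc4), 11 (Cat), 3 (Serpina1c) and 47 (Klf15). The median over all 32851 promoters of the RefSeq table was 7, with quartiles of 3 and 20. The sequence CCCTCC, reported as a SMYD3 element in human cells, was found on either strand in the 300 bases of Cat and Klf15 and in 39.2% of all promoters of that length. No count over all members is given, because 562 of the 755 protein-coding member genes (74.4%) had a RefSeq promoter, too few for such a check. The Serpina1 genes are near-identical copies, so reads at one copy may be split with another, both in the H3K4me3 and Smyd3 lists and in the RNA.

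Members were 4001 to 13474 bp wide in the DEN_WT list, with a median of 4925 bp (quartiles 4369 and 5708 bp). Of the members with a gene start, the widest covered that of Sdc4, a cell-surface proteoglycan, on chromosome 2 (mm9 chr2:164256342-164269815). It was followed by Bcl6, a transcriptional repressor (11998 bp), Slc39a14, a zinc and iron importer (11847 bp), Serpina1d, an alpha-1-antitrypsin copy (11491 bp), Cat, which encodes catalase (11414 bp), and Serpind1, heparin cofactor II (11100 bp). Then came Gm8893 (10595 bp), Serpina1c (10578 bp), Klf15, a fasting-responsive factor (10528 bp), Setd1b, an H3K4 methyltransferase gene (10414 bp), Gc, the vitamin D binding protein (10377 bp), and Tnrc18 (10158 bp). The widest of these members thus held both secreted liver proteins and regulators. A member without a gene start, in the body of Abca1 (10845 bp), lay between Serpind1 and Gm8893 in width. At the threshold, Traf7 (4001 bp), Wee1 (4001 bp) and Rnf5 with Agpat1 (4002 bp) lay just inside. Shared regions at Fzd7 (3997 bp), Apbb2 (3998 bp) and 8430408G22Rik (3999 bp) lay just outside.

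The DEN_KO regions that overlap the members were in the median about as wide as the members. The summed width of the overlapping DEN_KO regions was a median 1.002 times the DEN_WT width (quartiles 0.869 and 1.163). It was larger at 406 members, smaller at 398 and between 0.8 and 1.25 times at 526. With only the DEN_KO base pairs inside the member counted, the median was 0.955. At shared regions under 4000 bp the median ratio of the summed width was 1.123. A single DEN_KO region overlapped 781 members and 2 overlapped 24, and 634 members had a DEN_KO region that was itself at least 4000 bp. The ratio depends on the list that sets the selection, since the 1231 DEN_KO regions of at least 4000 bp that overlap the DEN_WT list were a median 1.261 times as wide as the DEN_WT regions they overlap. The whole DEN_KO list was larger, with 17491 regions over 32.85 Mb and 1318 of at least 4000 bp (7.54%), against 15579 regions over 26.94 Mb and 828 (5.31%) in the DEN_WT list. Of those 828, 23 did not overlap the DEN_KO list and are not members.

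**Figure D1:**
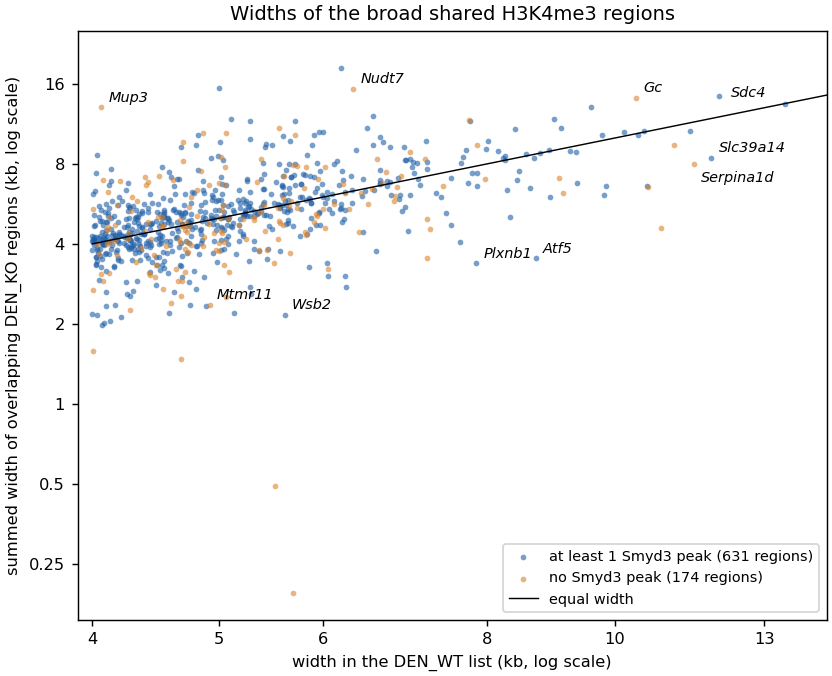
Width of each of the 805 broad shared H3K4me3 regions in the DEN_KO list (vertical axis, kb, summed over overlapping regions) against its width in the DEN_WT list (horizontal axis, kb), both on log scales, with regions that overlap a Smyd3 peak marked. The regions scatter around the line of equal width, with a median ratio of 1.002, and 22 lie below a ratio of 0.5 and 12 above a ratio of 2.

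Few members were far from equal width, with 22 ratios under 0.5 and 12 over 2. Among members with a gene start, the lowest ratio was at Wsb2 (2164 bp in DEN_KO and 5608 bp in DEN_WT, ratio 0.386). Next came the starts of Nup62, Il4i1 and Atf5, the last a stress-responsive transcription factor (3531 bp in DEN_KO and 8711 bp in DEN_WT, ratio 0.405), Plxnb1, a semaphorin receptor (3376 bp in DEN_KO and 7841 bp in DEN_WT, ratio 0.431), Fam59a (2751 bp in DEN_KO and 6242 bp in DEN_WT, ratio 0.441) and Mtmr11, of the myotubularin family (2363 bp in DEN_KO and 4917 bp in DEN_WT, ratio 0.481). The highest ratio was at Mup3, a major urinary protein with near-identical copies (13090 bp in DEN_KO and 4062 bp in DEN_WT, ratio 3.223). It was followed by Gm13476 (15458 bp in DEN_KO and 4997 bp in DEN_WT, ratio 3.093), Nudt7, a peroxisomal coenzyme A hydrolase (15331 bp in DEN_KO and 6325 bp in DEN_WT, ratio 2.424) and Gm11266 (11809 bp in DEN_KO and 5105 bp in DEN_WT, ratio 2.313). All 5 alpha-1-antitrypsin genes with a member were narrower in DEN_KO, with ratios of 0.722 (Serpina1a), 0.670 (Serpina1b), 0.623 (Serpina1c), 0.696 (Serpina1d) and 0.816 (Serpina1e). Elsewhere in that cluster the ratios were 0.618 at Serpina6, the corticosteroid binding globulin, 0.986 at Serpina10, 0.810 at Serpina3m, 0.934 at Serpina3n and 1.184 at Serpina3k.

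The members reached far into the gene and little upstream of it. At 526 members with 1 protein-coding start and 1 DEN_KO region, the median reach downstream of the start was 3996 bp in the DEN_KO list and 3913.5 bp in the DEN_WT list. Upstream it was 895.5 bp in the DEN_KO list and 909.5 bp in the DEN_WT list. The downstream side was the longer one at 488 of these members in the DEN_KO list and at 489 (93.0%) in the DEN_WT list. In the DEN_WT list it was longer at 88.1% of 2634 shared regions of 2000 to under 4000 bp and at 87.4% of 4579 under 2000 bp, where the downstream medians were 1877 bp and 916 bp. The downstream edge lay a median 31.5 bp farther from the start in the DEN_KO list than in the DEN_WT list, and the edges differed by over 500 bp at 275 members. The upstream edge lay a median 18 bp farther out in the DEN_KO list and differed by over 500 bp at 114. By this fixed distance the lists differed more often at the edge inside the gene. The upstream side is much the shorter and leaves its edge less room to lie 500 bp farther in, so these counts are not on a like scale.

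**Figure D2:**
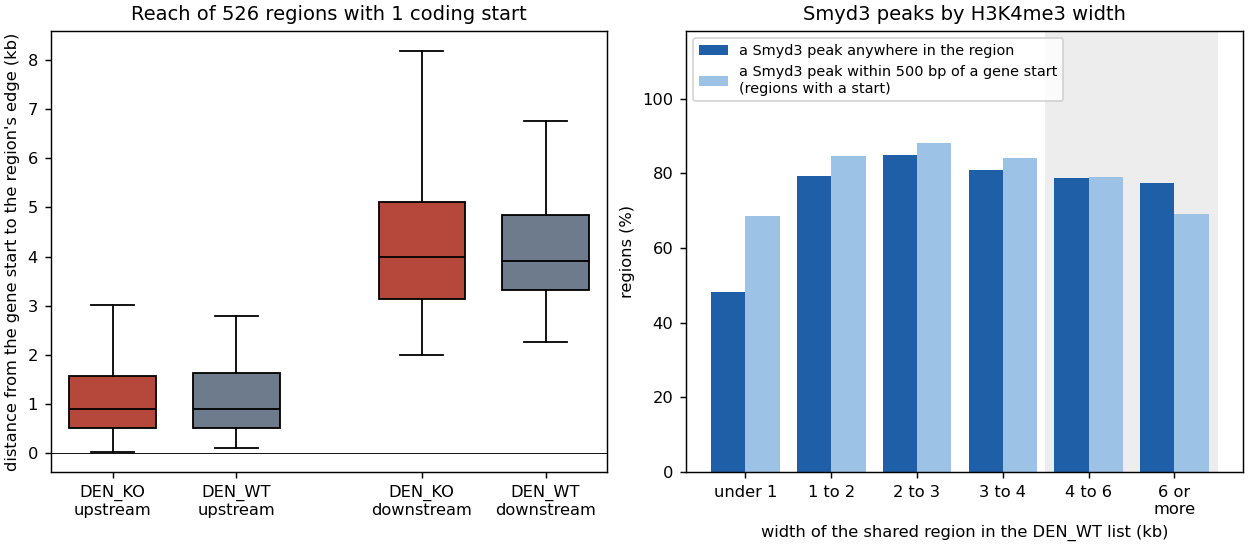
Left, reach of 526 broad shared regions upstream and downstream of the gene start in the DEN_KO and DEN_WT lists (kb), with the median as a line, quartiles as the box and whiskers to the 5th and 95th percentiles. Right, percent of shared regions that overlap a Smyd3 peak and percent of those with a gene start that have a peak within 500 bp of it, by width in the DEN_WT list (kb), with the broad regions shaded. The downstream medians are 3996 bp in DEN_KO and 3913.5 bp in DEN_WT, and the share with a peak at the start is 69.1% at 6000 bp or more and 88.1% at 2000 to under 3000 bp.

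Smyd3 peaks, called in DEN_WT livers and not used to choose the members, overlapped 631 of the 805 (78.4%), against 73.4% of the 12651 shared regions under 4000 bp. Among those narrower regions the share was 48.1% under 1000 bp, 79.3% at 1000 to under 2000 bp, 84.9% at 2000 to under 3000 bp and 80.9% at 3000 to under 4000 bp, so the members lay above the narrowest class and below the other 3. A single peak overlapped 440 members, 2 overlapped 134, 3 or more overlapped 57, and 174 had none. The most at 1 member was 5, at Tnrc18, at Zfp36l1 with Gm17591 and at Bahcc1 with 2 further genes. The number of peaks did not keep pace with width, with 0.21 peaks per kb at the members, against 0.468 per kb at the narrower shared regions. Smyd3 peaks covered 26.8% of the members' base pairs, against 44.7% at the narrower regions. A peak within 500 bp of a gene start was found at 77.0% of the 683 members with a start, against 82.8% of the 9730 narrower regions with one. This share was 68.5% under 1000 bp, 84.5% at 1000 to under 2000 bp, 88.1% at 2000 to under 3000 bp, 84.0% at 3000 to under 4000 bp, 79.0% at 4000 to under 6000 bp and 69.1% at 6000 bp or more.

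At the 526 members with 1 coding start, 340 of 612 Smyd3 peaks (55.6%) had their midpoint within 500 bp of it, 212 (34.6%) lay farther downstream and 60 (9.8%) farther upstream. At shared regions of 2000 to under 4000 bp, 79.9% of 2633 peaks lay within 500 bp, 16.6% farther downstream and 3.46% farther upstream. Width itself limits how far from a start a peak within a region can lie. Each list is 1 call over its group and regions are not replicates, so these shares carry no test.

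Of the 919 member genes, 755 are protein coding, 62 are annotated as lincRNA, 33 as antisense, 25 as miRNA and 20 as snoRNA. The most gene starts at 1 member was 11, at Gas5, a snoRNA host gene, and Zbtb37. The RNA filter, which asked for 10 or more in 3 or more libraries, kept 821 member genes, which is 4.98% of the 16471 genes tested, and left out 98, of which 17 are protein coding. Whether the counting used strand is not given in the sources used here, so reads of antisense and overlapping genes cannot be told apart.

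Lists of liver functions held many more broad shared regions than that share of all tested genes. Of 25 secreted hepatocyte proteins, 20 (80.0%) had one, among them Ahsg (fetuin-A), Apob and Apoa1 (lipoprotein scaffolds), Ttr (a thyroid hormone carrier), Fga, Fgb and Fgg (the fibrinogen chains), Plg (plasminogen) and Trf (transferrin). Alb, Apoa2, Itih3 and Itih4 had narrower shared regions at the start. Serpinc1 had none there, but a member without a gene start lay in its body (6116 bp). Of 30 hepatocyte transcription factors, 16 (53.3%) had one, among them Foxa1, Foxa3, Cebpa, Onecut1 and Prox1. Another 12, among them Hnf4a and Foxa2, had only narrower shared regions within 1000 bp of the start. Members without a gene start lay in the bodies of some of these 12, namely Hnf4a (5987 bp), Nr1h4 (5690 bp), Nr2f2 (6183 bp) and Nr5a2 (4190 bp). Each list's share counts only regions at the annotated start. Broad regions were not limited to liver genes, since 13 of 20 ubiquitous high-expression genes (65.0%) had one, for example Actb, Gapdh and Malat1. The lists were not matched for expression.

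The other lists ran from intermediate to none. The share was 46.7% of 15 amino acid and urea cycle enzymes, 42.1% of 19 glucose and lipid metabolism genes, 40.9% of 22 immediate early genes and 38.5% of 26 signal feedback and growth control genes. It was 29.4% of 17 cytochrome P450 and drug metabolism genes, 25.0% of 20 circadian clock genes and 22.2% of 18 H3K4 methylation genes, those being Mll1, Mll3, Mll5 and Setd1b, of the MLL and SET1 families. Of 18 oncofetal and tumour markers 1 (5.56%) had one, the fatty acid desaturase Scd2, and 6 had a region in the DEN_WT list that did not overlap the DEN_KO list. Of 23 Hox genes 0 had one. Members in the bodies of Srebf1 (5104 bp, glucose and lipid list) and Irs1 (5631 bp, feedback list) are not counted in these shares.

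The lists differed in how often a Smyd3 peak lay at the start of their broad genes. Over all 755 protein-coding member genes it lay within 500 bp at 585 (77.5%), against 84.0% of 10549 protein-coding genes with narrower shared regions. A peak lay within 500 bp of the start at 15 of the 16 broad transcription factor genes, at 9 of 9 broad immediate early genes, at 9 of 10 broad signal feedback genes and at 12 of 13 broad ubiquitous genes. It lay there at 6 of the 20 broad secreted protein genes (Ahsg, Apoa1, Apob, Fgg, Rbp4 and Trf) and at 2 of the 7 broad amino acid and urea cycle genes (Ass1 and Tat). It lay there at 0 of the 5 broad P450 and drug metabolism genes (Cyp2d9, Cyp2e1, Cyp2f2, Gsta3 and Gstm1). The peak list gives no depth or input value, so the absence of a peak sets no limit on Smyd3 binding.

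**Figure D3:**
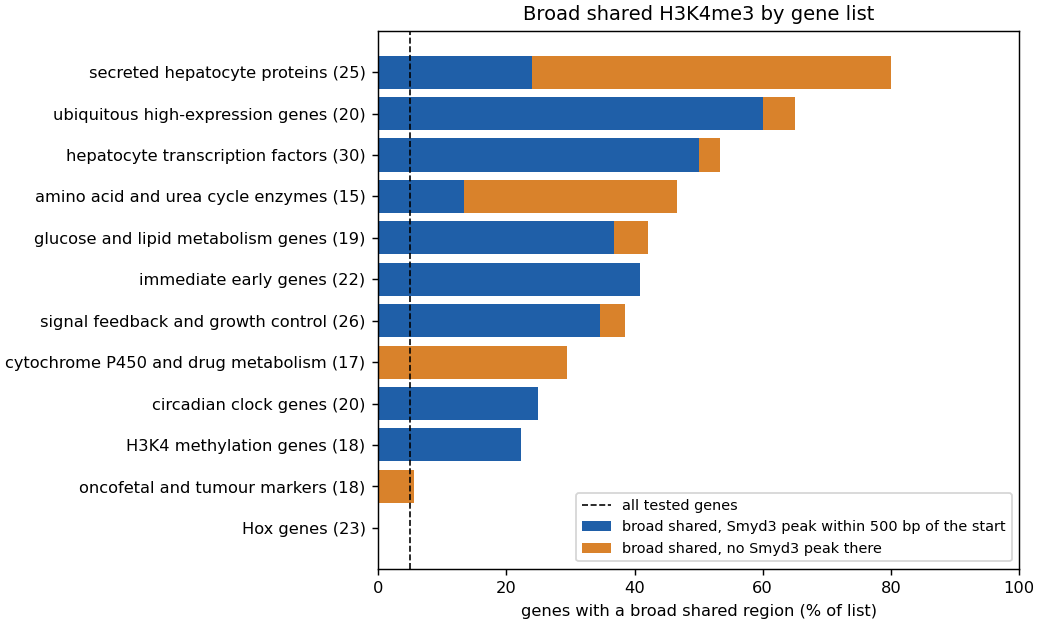
Percent of the genes of each list that have a broad shared H3K4me3 region within 1000 bp of their start, with list sizes in brackets, split by whether a Smyd3 peak lies within 500 bp of the start. The line marks the 4.98% of all tested genes that have one, and secreted hepatocyte proteins reach 80.0%, with a Smyd3 peak at the start of 6 of 20.

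The RNA of many member genes differed between DEN_KO and DEN_WT livers, in both directions. Of the 821 tested member genes, 146 (17.8%) were higher and 165 (20.1%) lower in DEN_KO than in DEN_WT livers at a limma adjusted p under 0.05, beside 16.4% higher and 17.4% lower over all tested genes. The members' shares were near this background, and their median log2 fold change was -0.02, against -0.06 over all tested genes. With quantile normalization, another scaling of the libraries, they were 15.7% higher and 25.5% lower, beside 17.8% and 17.9% of all tested genes, so the nearness to the background depended on the scaling. With 3 libraries a group the smallest exact two-sided p is 0.1, and the p of a single gene therefore comes from the limma model.

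Among the largest rises were a urea cycle enzyme, a cytochrome P450 and major urinary proteins. Asl, the argininosuccinate lyase of the urea cycle, read 12687, 11621 and 14451 in DEN_KO livers, against 2388, 1036 and 1798 in DEN_WT livers (log2 fold change 2.97 ± 0.26 SE, limma adjusted p = 2.78e-05). Every DEN_KO library was far above every DEN_WT library. Cyp2f2, a cytochrome P450 of periportal hepatocytes in the mouse, read 38605, 36206 and 51075 in DEN_KO livers, against 8837, 3685 and 13445 in DEN_WT livers (2.45 ± 0.38, limma adjusted p = 0.000498). G0s2, an inhibitor of triglyceride lipase, read 718, 7057 and 4125 in DEN_KO livers, against 531, 258 and 240 in DEN_WT livers (3.10 ± 0.62, limma adjusted p = 0.0022). For G0s2 the groups did not overlap, but DEN_KO replicate 1 was close to DEN_WT replicate 1. Mup7 and Mup9, major urinary proteins that carry pheromones, rose by 3.09 (SE 0.77, limma adjusted p = 0.00819) and 2.97 (SE 0.70, limma adjusted p = 0.00607). The antisense locus 0610008F07Rik rose by 3.13 (SE 0.66, limma adjusted p = 0.00305). Without DEN_WT replicate 2, which was low for all 3, the log2 fold changes were 1.85 (Mup7), 1.87 (Mup9) and 2.07 (0610008F07Rik), still past the threshold. Hist1h4h, a histone H4 gene, rose by 2.92 (SE 0.51, limma adjusted p = 0.000953) and D130020L05Rik by 2.41 (SE 0.31, limma adjusted p = 0.000172). The Mup and histone genes have near-identical copies whose reads the counting may split, so their values are uncertain.

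Among the largest falls were an immediate early gene, a cytokine receptor and a feedback inhibitor. Egr1, an immediate early transcription factor, read 395, 659 and 235 in DEN_KO livers, against 3995, 14311 and 5075 in DEN_WT livers (log2 fold change -4.07 ± 0.73 SE, limma adjusted p = 0.00119). Tnfrsf12a, the receptor of the cytokine TWEAK, read 136, 471 and 133 in DEN_KO livers, against 1921, 2517 and 2087 in DEN_WT livers (-3.40 ± 0.36, limma adjusted p = 6.31e-05). Cish, a feedback inhibitor of cytokine signalling, read 154, 161 and 178 in DEN_KO livers, against 1736, 2882 and 988 in DEN_WT livers (-3.37 ± 0.88, limma adjusted p = 0.0103). For these 3 genes every DEN_KO library was below every DEN_WT library. Also lower were Abcd2, a peroxisomal fatty acid transporter (-3.36 ± 0.46, limma adjusted p = 0.000237), Gm20419 (-3.27 ± 0.43, limma adjusted p = 0.000187), Fst, the activin antagonist follistatin (-3.16 ± 0.62, limma adjusted p = 0.00195), and Dusp5, an ERK phosphatase (-2.82 ± 0.41, limma adjusted p = 0.000348). Igfbp1, an insulin-like growth factor binding protein, read 7564, 6499 and 1211 in DEN_KO livers, against 14331, 46712 and 29834 in DEN_WT livers (-2.80 ± 0.81, limma adjusted p = 0.0176). Its call was lost without DEN_KO replicate 3 (adjusted p = 0.0872) or DEN_WT replicate 2 (0.0717).

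**Figure D4:**
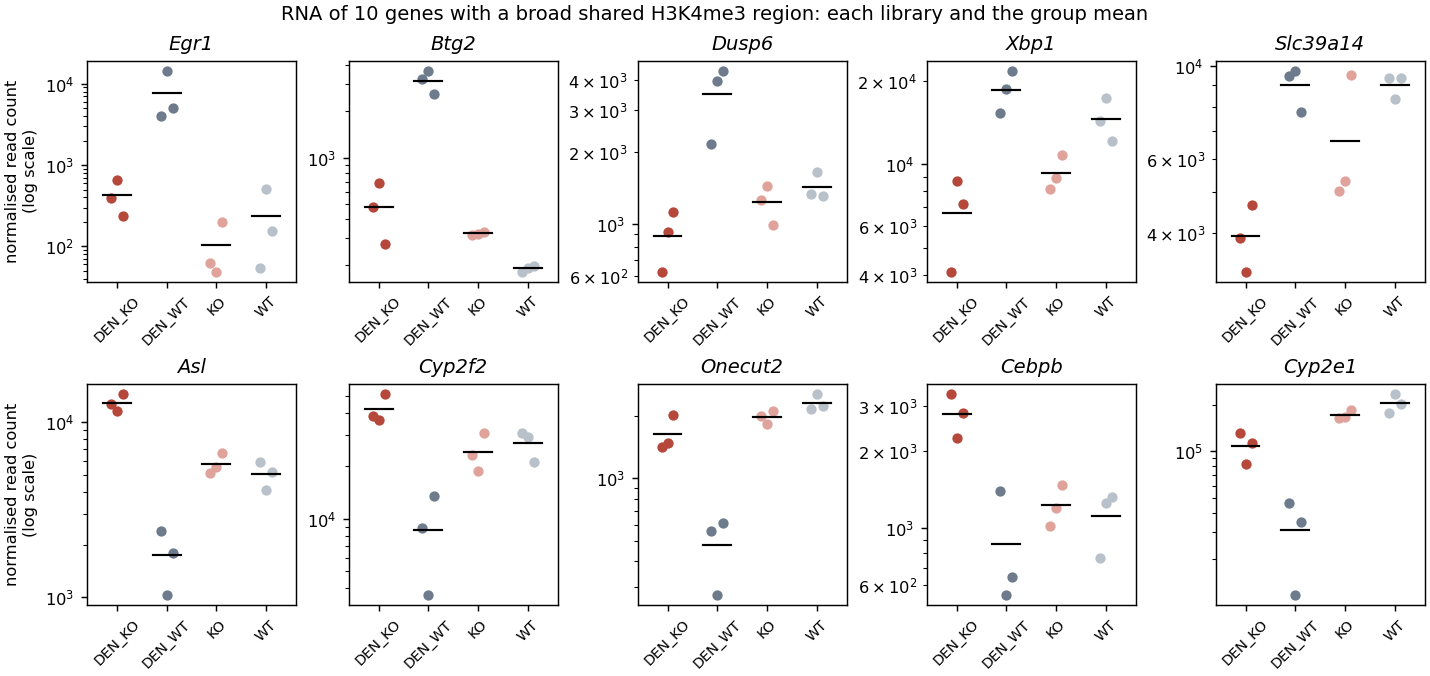
Normalised read counts (log scale) of 10 genes with a broad shared H3K4me3 region in each of the 12 libraries, with a point for each of the 3 libraries and a line for the mean of DEN_KO, DEN_WT, KO and WT livers. DEN_KO lies below DEN_WT for Egr1, Btg2, Dusp6, Xbp1 and Slc39a14 and above it for Asl, Cyp2f2, Onecut2, Cebpb and Cyp2e1, with no overlap between the libraries of the pair.

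Of the 16 transcription factor genes at broad shared regions, 5 were higher and 3 lower in DEN_KO than in DEN_WT livers (median log2 fold change 0.51), beside 16.4% and 17.4% of all tested genes. Of 13 tested factors without a broad shared region at the start 2 were higher and 0 lower. Cebpb, a factor of the acute phase and of gluconeogenesis, read 3346, 2248 and 2821 in DEN_KO livers, against 1404, 549 and 642 in DEN_WT livers (log2 fold change 1.81 ± 0.32 SE, limma adjusted p = 0.000987). Onecut2, a cut-homeodomain factor of liver development, read 1410, 1482 and 2009 in DEN_KO livers, against 557, 277 and 609 in DEN_WT livers (1.82 ± 0.25, limma adjusted p = 0.000232). Nr0b2, the repressor SHP of bile acid synthesis, rose by 1.29 (SE 0.28, limma adjusted p = 0.00385) and Ppara, the factor of fatty acid oxidation, by 0.81 (SE 0.18, limma adjusted p = 0.00475). The libraries of the groups did not overlap for any of these 4 genes. Klf15 read 8958, 3647 and 7069 in DEN_KO livers, against 4226, 2269 and 3692 in DEN_WT livers (0.90 ± 0.30, limma adjusted p = 0.0311). Its groups overlapped, and the call was lost without DEN_KO replicate 1 (adjusted p = 0.133), DEN_KO replicate 3 (0.104) or DEN_WT replicate 2 (0.137).

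The 3 factors that fell included Xbp1 and Gata6. Xbp1, the factor of the unfolded protein response, read 4117, 8712 and 7197 in DEN_KO livers, against 15268, 18589 and 21636 in DEN_WT livers (log2 fold change -1.52 ± 0.26 SE, limma adjusted p = 0.000888). Gata6, an endoderm factor, read 177, 159 and 169 in DEN_KO livers, against 319, 430 and 459 in DEN_WT livers (-1.24 ± 0.22, limma adjusted p = 0.00108). The groups did not overlap for either gene. The other 8 factors were not past the threshold, with log2 fold changes from -0.42 ± 0.29 (Prox1) to 1.48 ± 0.70 (Tbx3). Among them were Foxa1 (-0.27 ± 0.33), Foxa3 (-0.25 ± 0.29) and Cebpa (0.36 ± 0.22).

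Most amino acid, urea cycle, P450 and drug metabolism genes at broad shared regions were higher in DEN_KO livers, while glucose and lipid genes were not of 1 direction. Of 7 amino acid and urea cycle genes 6 were higher and 0 lower (median log2 fold change 1.37), and of 5 P450 and drug metabolism genes 5 were higher (median 1.98), beside 16.4% of all tested genes. Cyp2e1, a P450 that activates nitrosamines, read 131842, 82292 and 112643 in DEN_KO livers, against 46023, 11828 and 34714 in DEN_WT livers (2.00 ± 0.44, limma adjusted p = 0.00384). Its groups did not overlap. Cyp2d9, which has near-identical copies, rose by 1.98 (SE 0.32, limma adjusted p = 0.000566) and Gsta3, a glutathione transferase, by 1.77 (SE 0.27, limma adjusted p = 0.000399). Cps1, the entry enzyme of the urea cycle, rose by 0.85 (SE 0.31, limma adjusted p = 0.047), a call lost without any 1 of 9 libraries (adjusted p of 0.0502 to 0.162). The 9 included DEN_KO replicates 1 and 3, DEN_WT replicates 2 and 3, the 3 KO libraries and WT replicates 2 and 3. Tat, tyrosine aminotransferase, rose by 1.13 (SE 0.33, limma adjusted p = 0.0168), a call lost without DEN_KO replicate 1 (adjusted p = 0.0693) or DEN_WT replicate 3 (0.0719). With quantile normalization the values were 0.25 for Cps1 (limma adjusted p = 0.525) and 0.65 for Tat (limma adjusted p = 0.149). Arginase was not past the threshold, as Arg1 (0.46 ± 0.31). Over the other fits 4 to 6 of the 7 amino acid genes and 5 of the 5 P450 and drug genes were higher. Genes of these lists without a broad shared region also rose, 3 of 8 amino acid genes and 11 of 12 P450 and drug genes. Of 8 glucose and lipid genes 2 were higher and 2 lower, with Pck1 and Fbp1, enzymes of gluconeogenesis, up by 2.01 (SE 0.47, limma adjusted p = 0.00542) and 1.36 (SE 0.24, limma adjusted p = 0.00104). The lipogenic Scd1 (-0.64 ± 0.54) and Fasn (0.04 ± 0.37) were not past the threshold.

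Secreted protein genes had no common direction. Over all tested genes 16.4% were higher and 17.4% lower in DEN_KO than in DEN_WT livers. Of 5 genes of this list without a broad shared region at the start 1 was higher and 0 lower. Of the 20 at broad shared regions, 3 were higher (1 to 4 over the other fits) and 1 lower (0 to 2). Their median log2 fold change was -0.09. The one that fell was Ahsg, which read 216243, 297773 and 201790 in DEN_KO livers, against 441476, 760509 and 544824 in DEN_WT livers (-1.27 ± 0.40, limma adjusted p = 0.0255). Its groups did not overlap, but the call was lost without DEN_KO replicate 1 (adjusted p = 0.0654), DEN_KO replicate 3 (0.0951) or DEN_WT replicate 3 (0.053). With quantile normalization the Ahsg value was -0.80 (limma adjusted p = 0.127). Not past the threshold were Apoa1 (-0.58 ± 0.45), Serpina1a (-0.82 ± 0.59) and Serpina1b (-1.11 ± 0.44).

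Among signalling genes at broad shared regions, 5 of 10 feedback and growth control genes were lower and 1 higher in DEN_KO than in DEN_WT livers, and of 9 immediate early genes 3 were lower and 2 higher, beside 17.4% lower and 16.4% higher over all tested genes. Of the genes of these lists without a broad shared region at the start, 6 of 16 feedback genes were lower and 1 higher. Of 12 such immediate early genes 5 were lower and 1 higher. Btg2, an antiproliferative immediate early gene, read 480, 689 and 275 in DEN_KO livers, against 3228, 3652 and 2590 in DEN_WT livers (-2.79 ± 0.26, limma adjusted p = 3.57e-05). Dusp6, an ERK phosphatase, read 628, 921 and 1122 in DEN_KO livers, against 2156, 3983 and 4370 in DEN_WT livers (-1.95 ± 0.27, limma adjusted p = 0.000244). For both genes the groups were far apart. Insr, the insulin receptor, was also lower (-0.87 ± 0.14, limma adjusted p = 0.000687), as was Scd2 (-2.34 ± 0.27, limma adjusted p = 8.76e-05). Not past the threshold were Zfp36 (-0.61 ± 0.37), which destabilises cytokine transcripts, Btg1 (-0.28 ± 0.31) and Igf1 (0.36 ± 0.27), the growth hormone effector.

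The remaining lists gave few or no calls. The 5 clock genes gave 0 calls in DEN_KO against DEN_WT by limma, with Bhlhe40 (0.06 ± 0.22), Nr1d1 (0.04 ± 0.22), Csnk1d (-0.23 ± 0.17) and Hlf (0.22 ± 0.23). The 4 H3K4 methylation genes also gave 0 calls, with Mll1 (0.04 ± 0.18), Mll3 (0.32 ± 0.19), Mll5 (0.11 ± 0.17) and Setd1b (-0.10 ± 0.23). Of 13 ubiquitous genes 3 were lower and 0 higher, beside 17.4% lower and 16.4% higher over all tested genes. The count of lower ubiquitous genes was 1 to 6 over the other fits. Of list genes without a broad shared region at the start, 2 of 7 ubiquitous genes were lower and 1 higher. Of such genes 2 of 15 clock genes were lower and 1 higher, and 3 of 14 H3K4 methylation genes were lower and 0 higher.

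DEN in wild type mice went with differences at a similar share of member genes. Of 821, 170 (20.7%) were higher and 146 (17.8%) lower in DEN_WT than in WT livers, beside 16.1% and 13.5% of all tested genes. With quantile normalization the shares were 27.8% and 16%, beside 15.1% and 16.4% of all tested genes. The comparison shares its DEN_WT libraries with DEN_KO against DEN_WT, so a gene that is high in those libraries is higher in the one and lower in the other. Igfbp1 read 14331, 46712 and 29834 in DEN_WT livers, against 25, 111 and 208 in WT livers (log2 fold change 8.32 ± 0.81 SE, limma adjusted p = 1.34e-05). Cyp2a4, a female-biased steroid hydroxylase with near-identical copies, read 90792, 37393 and 45636 in DEN_WT livers, against 220, 477 and 407 in WT livers (7.26 ± 0.48, limma adjusted p = 8.59e-07). Scd2 read 6282, 7666 and 6688 in DEN_WT livers, against 113, 83 and 95 in WT livers (6.14 ± 0.27, limma adjusted p = 6.18e-08). In all 3 genes the lowest DEN_WT library was far above the highest WT library. Mtmr11 rose by 6.07 (SE 0.32, limma adjusted p = 2.19e-07), Egr1 by 5.34 (SE 0.73, limma adjusted p = 0.00017) and Dusp5 by 5.34 (SE 0.41, limma adjusted p = 2.53e-06). The largest falls were at Mup7 (-4.34 ± 0.77, limma adjusted p = 0.00106), Mup9 (-3.74 ± 0.70, limma adjusted p = 0.00149), 0610008F07Rik (-3.62 ± 0.66, limma adjusted p = 0.00118) and Cyp2e1 (-2.93 ± 0.44, limma adjusted p = 0.000328). Next were the low genes Gm17040 (-2.80 ± 0.78, limma adjusted p = 0.0153) and Gm17591 (-2.68 ± 0.79, limma adjusted p = 0.0213). The Gm17040 call was lost without DEN_WT replicate 2 (adjusted p = 0.0679) or WT replicate 1 (0.0663), and the Gm17591 call without DEN_WT replicate 2 (adjusted p = 0.0732), WT replicate 2 (0.0616) or WT replicate 3 (0.077).

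By list, 2 of the 16 transcription factor genes were higher in DEN_WT than in WT livers, Gata6 among them, and 5 lower, Onecut1, Onecut2, Nr0b2, Ppara and Tbx3. Over all tested genes 16.1% were higher and 13.5% lower. Of 13 tested factors without a broad shared region at the start 0 were higher and 5 lower. Onecut2 read 557, 277 and 609 in DEN_WT livers, against 2141, 2535 and 2223 in WT livers (-2.33 ± 0.25, limma adjusted p = 2.58e-05). Onecut1 fell by 2.38 (SE 0.67, limma adjusted p = 0.0165), a call lost without DEN_WT replicate 3 (adjusted p = 0.077) or WT replicate 1 (0.0711). Nr0b2 fell by 0.99 (SE 0.28, limma adjusted p = 0.0178), a call lost without DEN_WT replicate 2 (adjusted p = 0.0787) or WT replicate 2 (0.0689). Tbx3, a T-box repressor of the liver, fell by 2.14 (SE 0.70, limma adjusted p = 0.0344), a call lost without DEN_WT replicate 2 (adjusted p = 0.147), WT replicate 1 (0.106) or WT replicate 2 (0.0884). Both enzyme lists of amino acid and drug metabolism were mostly lower, with 5 of 7 amino acid and urea cycle genes (median log2 fold change -1.46) and 4 of 5 P450 and drug genes (median -2.21) lower and 0 higher in either list. This also held without a broad shared region at the start, with 5 of 8 amino acid genes and 9 of 12 P450 and drug genes lower and 0 higher. Glucose and lipid genes were higher at 2 of 8 and lower at 0 (median 0.29). Immediate early genes were higher at 6 of 9 and lower at 0, with Btg2 up by 4.03 (SE 0.26, limma adjusted p = 6.97e-07). Feedback genes were higher at 5 of 10 and lower at 2, secreted protein genes higher at 4 of 20 (2 to 11 over the other fits) and lower at 0, and clock genes lower at 2 of 5. The clock genes that fell were Bhlhe40 (-1.51 ± 0.22, limma adjusted p = 0.000271) and Hlf (-0.98 ± 0.23, limma adjusted p = 0.00596). Among list genes without a broad shared region at the start, 9 of 12 immediate early and 7 of 16 feedback genes were higher and 0 lower. Of such genes 2 of 11 glucose and lipid genes were higher and 3 lower, 2 of 5 secreted protein genes higher and 1 lower, and 4 of 15 clock genes higher and 3 lower.

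In untreated mice few member genes differed by genotype. Of 821, 3 (0.365%) were higher and 3 (0.365%) lower in KO than in WT livers by limma, beside 0.546% and 0.613% of all tested genes, and 145 had an unadjusted p under 0.05, as had 2492 of the 16471 tested genes. With quantile normalization 0.365% were higher and 0.122% lower. Fam198a read 575, 455 and 733 in KO livers, against 221, 121 and 208 in WT livers (log2 fold change 1.70 ± 0.31 SE, limma adjusted p = 0.0168). Irf2bp2, a transcriptional co-repressor, read 506, 437 and 537 in KO livers, against 183, 184 and 253 in WT livers (1.26 ± 0.22, limma adjusted p = 0.0126). Sdc4, at the widest member, read 14013, 12516 and 12103 in KO livers, against 8860, 4874 and 6375 in WT livers (0.98 ± 0.21, limma adjusted p = 0.0441). In all 3 genes every KO library was above every WT library. Abcd2 read 18, 19 and 11 in KO livers, against 48, 75 and 114 in WT livers (-2.18 ± 0.46, limma adjusted p = 0.0385). Plxnb1 read 537, 442 and 442 in KO livers, against 1478, 767 and 1012 in WT livers (-1.15 ± 0.21, limma adjusted p = 0.0218). Rtp4, a receptor chaperone induced by interferon, read 250, 221 and 275 in KO livers, against 385, 669 and 603 in WT livers (-1.11 ± 0.25, limma adjusted p = 0.0478). In these 3 genes every KO library was below every WT library. None of the 6 calls was kept in every fit that left out 1 library: those of Fam198a and Irf2bp2 were lost without KO replicate 1 (adjusted p = 0.0692) or WT replicate 2 (0.0925) and without KO replicate 1 (adjusted p = 0.0602) or WT replicate 2 (0.0704), and that of Plxnb1 without KO replicate 1 (adjusted p = 0.0536) or KO replicate 2 (0.102). The Sdc4 call was lost without any 1 of 9 libraries (adjusted p of 0.0508 to 0.216), the Rtp4 call without any 1 of 9 libraries (adjusted p of 0.0512 to 0.221) and the Abcd2 call without any 1 of 6 libraries (adjusted p of 0.0557 to 0.147). Leaving out KO replicate 1 ended all 6 calls. Single libraries also set the counts, since without KO replicate 1 none was called, and without KO replicate 3 the shares were 2.45% higher and 1.96% lower. Without WT replicate 2 they were 0% and 0.122%, while the lower share was 0% without KO replicate 2, 0.122% without DEN_WT replicate 3 and 0.609% without WT replicate 1.

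The genotype difference under DEN was set against that in untreated mice by the interaction of genotype and treatment. It was positive at 85 member genes (10.4%) and negative at 95 (11.6%), beside 8.73% and 7.83% of all tested genes. With quantile normalization it was positive at 7.31% and negative at 16.4%, beside 9.21% and 8.52% of all tested genes. Without DEN_KO replicate 3 the positive share was 6.23%, and without KO replicate 1 it was 6.84%. Btg2, lower in DEN_KO than in DEN_WT livers, read 317, 320 and 329 in KO livers, against 182, 193 and 198 in WT livers (interaction -3.55 ± 0.36 SE, limma adjusted p = 0.000506). Mtmr11 was also lower in DEN_KO than in DEN_WT livers. It read 36, 24 and 29 in KO livers, against 15, 12 and 14 in WT livers (interaction -3.68 ± 0.46, limma adjusted p = 0.000876). For both genes the untreated KO libraries were above the WT libraries, although the untreated difference alone was not past the threshold. Asl read 5155, 5556 and 6664 in KO livers, against 5931, 4078 and 5173 in WT livers, with overlapping groups (interaction 2.76 ± 0.36, limma adjusted p = 0.000939). Onecut2 had an interaction of 2.05 ± 0.35 (limma adjusted p = 0.00315), Gata6 of -1.86 ± 0.31 (limma adjusted p = 0.00277) and Hist1h4h of 3.46 ± 0.72 (limma adjusted p = 0.00764).

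RNA was then set beside width at the same genes, from lists and libraries made from separate preparations. Of 124 tested genes at members whose DEN_KO width was under 0.8 of the DEN_WT width, 14 (11.3%) were higher and 40 (32.3%) lower in DEN_KO than in DEN_WT livers, beside 16.4% and 17.4% of all tested genes, with a median log2 fold change of -0.33. Of 564 genes at ratios of 0.8 to 1.25, 16.8% were higher and 19.7% lower, with a median of -0.01. Of 133 genes at ratios over 1.25, 37 (27.8%) were higher and 14 (10.5%) lower, with a median of 0.19. Genes at regions narrower in DEN_KO were thus more often lower than higher, and genes at regions wider in DEN_KO more often higher than lower. Over the other fits the share lower at ratios under 0.8 was 21.3% to 42.7%, and the share higher at ratios over 1.25 was 21.1% to 29.3%. Across the 821 genes the width ratio and the RNA log2 fold change had a Pearson r of 0.22 and a Spearman rho of 0.23, and over 479 genes at members with 1 start an r of 0.24 and a rho of 0.25. Genes are not replicates and neighbours can share a region, so these values are a description. In DEN_WT against WT livers, which shares the DEN_WT libraries, 35.5% were higher and 9.68% lower at ratios under 0.8, and 11.3% higher and 33.8% lower at ratios over 1.25, beside 16.1% and 13.5% of all tested genes.

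**Figure D5:**
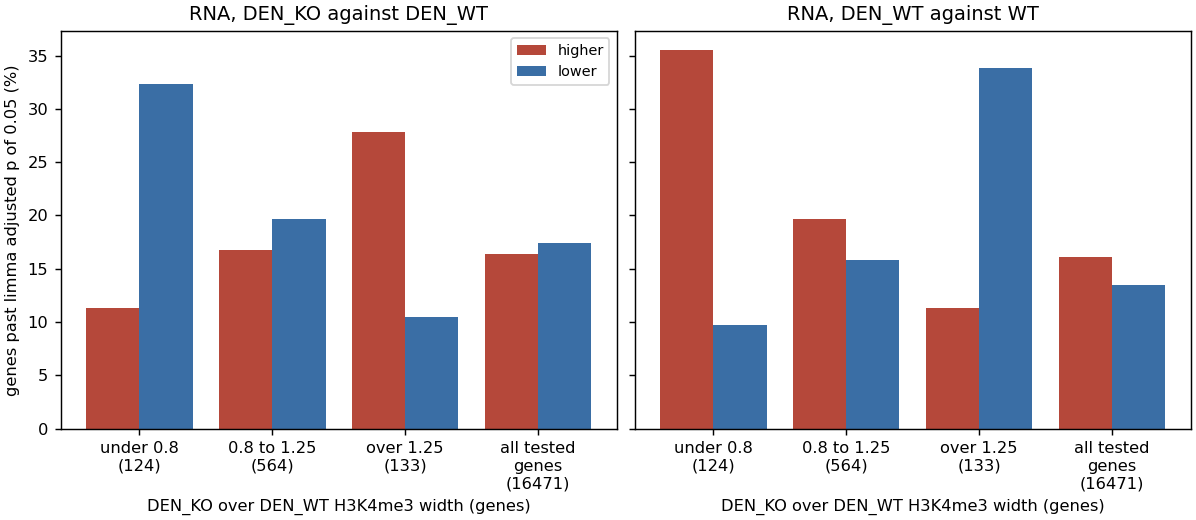
Percent of tested genes called higher or lower by limma in DEN_KO against DEN_WT livers and in DEN_WT against WT livers, by the ratio of DEN_KO to DEN_WT width at their broad shared region, with all tested genes for comparison. At ratios under 0.8, 32.3% were lower in DEN_KO than in DEN_WT livers, and at ratios over 1.25, 27.8% were higher.

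At the most extreme ratios the RNA followed the width at some genes and not at others. Nudt7, wider in DEN_KO, read 12139, 12229 and 18367 in DEN_KO livers, against 9292, 3842 and 8281 in DEN_WT livers (1.07 ± 0.32, limma adjusted p = 0.0199), a call lost without DEN_KO replicate 3 (adjusted p = 0.0891) or DEN_WT replicate 2 (0.0818). Mup3 rose by 1.43 (SE 0.42, limma adjusted p = 0.0176), a call lost without DEN_KO replicate 3 (adjusted p = 0.0543) or DEN_WT replicate 2 (0.0565), while Gm13476 (-0.87 ± 0.44) and Gm11266 (1.01 ± 0.45) were not past the threshold. Of the narrower ones, Plxnb1 read 822, 1126 and 1126 in DEN_KO livers, against 3177, 3157 and 2848 in DEN_WT livers (-1.59 ± 0.21, limma adjusted p = 0.000219). Fam59a, an adaptor of receptor tyrosine kinases, read 654, 561 and 682 in DEN_KO livers, against 1443, 1424 and 1458 in DEN_WT livers (-1.19 ± 0.15, limma adjusted p = 0.000132). Mtmr11 read 163, 256 and 95 in DEN_KO livers, against 822, 1240 and 929 in DEN_WT livers (-2.62 ± 0.32, limma adjusted p = 0.000132). In these 3 genes every DEN_KO library was far below every DEN_WT library. Atf5 read 7642, 16025 and 8384 in DEN_KO livers, against 14533, 28979 and 17420 in DEN_WT livers (-0.95 ± 0.31, limma adjusted p = 0.0293). Its groups overlapped, and the call was lost without DEN_KO replicate 1 (adjusted p = 0.114), DEN_KO replicate 3 (0.107) or DEN_WT replicate 2 (0.126). Its neighbours at the same region, Nup62 (0.42 ± 0.27) and Il4i1 (-0.57 ± 0.46), and the gene at the lowest ratio, Wsb2 (-0.26 ± 0.15), were not past the threshold.

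The widest members had no common direction. Slc39a14 read 3886, 3240 and 4657 in DEN_KO livers, against 9475, 9711 and 7746 in DEN_WT livers (-1.20 ± 0.23, limma adjusted p = 0.00182). Serpind1 read 17180, 12882 and 14458 in DEN_KO livers, against 20680, 35458 and 24102 in DEN_WT livers (-0.82 ± 0.24, limma adjusted p = 0.0167). Neither pair of groups overlapped, but the Serpind1 call was lost without DEN_KO replicate 2 (adjusted p = 0.0605), DEN_KO replicate 3 (0.0521) or DEN_WT replicate 2 (0.066). Serpina1d fell by 1.12 (SE 0.40, limma adjusted p = 0.0468), a call lost without any 1 of 9 libraries (adjusted p of 0.0503 to 0.146), among them every DEN_KO library and DEN_WT replicate 3. Not past the threshold were Sdc4 (0.50 ± 0.21), Bcl6 (1.03 ± 0.88), Cat (0.21 ± 0.30), Gm8893 (0.47 ± 0.31), Serpina1c (-0.48 ± 0.53), Gc (-0.47 ± 0.32) and Tnrc18 (0.84 ± 0.34). Of 164 genes at members of at least 6000 bp, 18.9% were higher and 20.1% lower, against 17.5% and 20.1% of 657 genes at narrower members. Both were near the 16.4% higher and 17.4% lower of all tested genes.

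Genes with a Smyd3 peak at the start were set beside those without. Of 635 member genes with a peak within 500 bp of the start, 15.7% were higher and 20.3% lower in DEN_KO than in DEN_WT livers, with a median log2 fold change of -0.06. Over all tested genes 16.4% were higher and 17.4% lower. Of 186 without one, 24.7% were higher and 19.4% lower, with a median of 0.13 that ran from -0.14 to 0.18 over the other fits. The share higher ran from 17.9% to 26.7% without a peak and from 11.4% to 18.2% with one over those fits. With quantile normalization 19.9% of the 186 were higher and 24.2% lower. The difference between these shares was not tested.

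Of the 122 members without a gene start, 68 (55.7%) overlapped a Smyd3 peak, against 563 of the 683 members with a start (82.4%), a difference that was not tested. Of the 122, 95 lay in the body of a gene, such as Abca1, a cholesterol exporter (10845 bp), Ttc39c (9589 bp), Sgk1, a serum- and glucocorticoid-induced kinase (7699 bp), and Sepp1, the selenium carrier selenoprotein P (7168 bp). The other 27 lay outside every annotated gene. The member in the body of Nr2f2, a nuclear receptor gene, was 18327 bp wide in DEN_KO and 6183 bp in DEN_WT. The lowest ratios of all members were at such regions, with 195 bp in DEN_KO and 5690 bp in DEN_WT (0.034) on chromosome 10 and 491 bp in DEN_KO and 5511 bp in DEN_WT (0.089) on chromosome 13.

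The member genes took up a large share of each library's sum. It was 35.7% to 36.3% in DEN_KO livers, 38.3% to 40.3% in DEN_WT livers, 32.5% to 34.6% in KO livers and 33.7% to 34.9% in WT livers. Without the 5 highest member genes of each library it was 28% to 29% in DEN_KO livers, 26.3% to 29% in DEN_WT livers, 26.3% to 26.8% in KO livers and 25.1% to 27.7% in WT livers. The range of DEN_WT livers lay above that of the other groups with those genes and overlapped it without them.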

How the data were processed

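RNA was measured in 12 mouse liver libraries, and H3K4me3 and Smyd3 chromatin immunoprecipitation in DEN-treated livers. The submitters' processing notes name cutadapt, TopHat2 2.0.9, Cufflinks, Bowtie2 and DESeq with mm9, without roles. The deposited RNA score is a read count per gene, normalised and rounded to whole numbers by the authors and not scaled by length, so levels are compared within a gene only. The table's GC fraction per gene is also the authors'. The 3 deposited region lists give starts and ends, treated as other values. They have a single list per group, with the caller, thresholds and any pooling of replicates not given in the sources used here. RNA polymerase II immunoprecipitations were not analysed here.

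Genes that reached 10 in 3 or more libraries (16471 of 37583) were tested with limma 3.58.1 in R 4.3.3 on log2(value + 1), with a mean-dependent prior variance, in 1 fit over 4 groups. Fold changes on this scale understate changes of low genes. Adjusted p-values are Benjamini-Hochberg values over all tested genes, with 0.05 as the threshold, and the steps were tested on simulated data. Errors are standard errors of the model with 3 libraries in each group. Raw depth is unknown because the values were normalised. Regions were processed with Python 3.11.15 and pandas 2.3.3, and widths are in bp on mm9. Promoters come from RefSeq on GRCm38.p6 and were matched by gene symbol, with no coordinates moved between builds.

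The members and lists were chosen with earlier results of these data known. Genes named are those at the 12 widest members with a gene start and at the 5 highest and 5 lowest width ratios of such members, and the called genes without group overlap that changed most (8 each way in DEN_KO against DEN_WT, 6 in DEN_WT against WT, up to 4 in KO against WT and in the interaction). They also include all transcription factor members, up to 4 members of every other list by mean value, and the 5 member genes of highest mean value. Some genes that this rule names are not reported here. Genes given by width alone or as examples of a list were chosen after their values were seen. Same-numbered libraries come from separate mice and their deviations from the group means correlated at -0.1 to 0.12 over 18 pairs, so the numbers do not pair them. Other pseudocounts, filters, scalings, windows, widths, a replicate block, 2-group fits and leaving out each library were tried.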

Additional observations from a re-analysis of the deposited data

Results flagged for a closer look

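The named genes include those with the largest interactions and group differences, so a high count of interaction calls among them follows from the choice. Over all tested genes the interaction was positive at 8.73% and negative at 7.83%. For 31 of the 95 named and tested genes the genotype difference in DEN-treated livers (DEN_KO minus DEN_WT) departed from that in untreated livers (KO minus WT), by the limma interaction at an adjusted p under 0.05. The values that follow are this difference on the log2 scale for 29 of them. It was positive at metabolic genes, namely G0s2 (3.13), Asl (2.76), Cyp2f2 (2.62), Cyp2e1 (2.24), Cyp2d9 (2.23) and Gsta3 (1.71). It was also positive at the transcription factor genes Cebpb (1.64), Onecut2 (2.05) and Nr0b2 (1.32). Further positive values were at Mup3 (1.83), 0610008F07Rik (3.23), Mup7 (3.41), Hist1h4h (3.46) and D130020L05Rik (2.22). Of these, the Mup and histone values are uncertain because of near-identical copies.

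It was negative at signalling genes, namely Tnfrsf12a (-3.07), Dusp5 (-2.62), Igfbp1 (-4.12), Btg2 (-3.55), Insr (-1.0) and Dusp6 (-1.72). Genes at regions narrower in DEN_KO were Wsb2 (-0.76), Fam59a (-1.34) and Mtmr11 (-3.68). The other negative values were at Gm20419 (-2.66), Cyp2a4 (-3.42), Scd2 (-2.44), Fam198a (-2.64), Irf2bp2 (-1.07) and Gata6 (-1.86). Of the 31 calls, 19 were kept when any 1 library was left out and 12 were lost without at least 1 library, among them those of Mup3, Wsb2, 0610008F07Rik, G0s2, Mup7, Igfbp1, Cyp2e1, Irf2bp2, Cebpb and Nr0b2.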

How the results depend on the processing

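The number of broad shared regions was 1859 with a width of at least 3000 bp and 377 with at least 5000 bp. The share of member genes higher in KO than in WT livers was 0.228% with no filter on low values and 0.802% at widths of at least 5000 bp, and the share lower was 0.228% with no filter and 0.122% with quantile normalization. The cause was not tested. With each library left out in turn, the share higher ran from 0% to 2.45% and the share lower from 0% to 1.96% in KO against WT, and the positive interaction share ran from 6.23% to 10.9%. In DEN_KO against DEN_WT it ran from 13.1% to 19.8% higher and from 14.4% to 21.3% lower. With a replicate block the shares were 16.9% higher and 19.1% lower in DEN_KO against DEN_WT, 19.4% and 18% in DEN_WT against WT, 0.365% and 0.244% in KO against WT, and 9.26% and 10.5% in the interaction. Over 95 named genes and 20 alternatives, no value past the threshold changed its sign. Of the named calls, 37 of 51 in DEN_KO against DEN_WT, 42 of 52 in DEN_WT against WT, 0 of 6 in KO against WT and 19 of 31 in the interaction were kept without each library. Quantile normalization ended 6, 3, 2 and 4 of these calls and the replicate block 1, 2, 2 and 3, in the same order. In DEN_KO against DEN_WT the 6 were those of Serpina1d, Klf15, Nudt7, Ahsg, Cps1 and Tat. With 1 list per group, a width has no replicate error.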

Other observations

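Gene GC content, from the authors' table, was a median 47.3% over the 755 protein-coding genes at broad shared regions, 45.7% over 10549 with narrower shared regions and 45.3% over 10002 with no region. The genes at broad shared regions spanned a median 18.2 kb, against 22.9 kb at narrower shared regions. Within the 755, genes with a Smyd3 peak within 500 bp of the start spanned a median 20.2 kb (585 genes), against 13.3 kb without one (170 genes). Differences between these medians were not tested.

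Broad shared regions lay on each of chromosomes 1 to 19 and on X, with 73 on chromosome 11, 59 on chromosome 1 and 12 on X.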
